A study of Mus musculus with 12 samples.

Results

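Matricellular proteins are secreted into the extracellular matrix, where they act on cells and growth factors more than as structural scaffold. The genes described here are 8 of them, out of 20432 genes measured: the thrombospondins Thbs1, Thbs2 and Thbs3, the acidic phosphoproteins Spp1 and Dmp1, and Sparc, Tnc and Postn. They were found by symbol. The set was chosen by the measured differences between Cre and parental cells, in which Thbs2 and Dmp1 were lower after Cre, so those differences are given below as a description with no test.

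RNA was profiled from 6 mouse pancreatic ductal adenocarcinoma cell lines, numbered 52205, 52419, 52424, 53105, 53369 and 53371. Each line gave 1 library as the parental culture, labelled wild type, and 1 library labelled JAK1 knockout. The latter cells (Cre below) had received the retrovirus pBabe-Cre-puro and were grown in puromycin raised from 2 to 4 to 7 µg/ml. All cultures grew in the same serum-containing medium. Uninfected parental cells are the comparison, so loss of JAK1, infection, selection and time in culture cannot be told apart. The labels do not say whether the Cre lines are clones or pools, nor which exons of Jak1 Cre removes. The 12 libraries held 11.5 to 18.0 M reads in genes (M, 1e+06 reads). Jak1 itself, counted over the whole gene, did not pass the test of Cre against parental: it was at 125 to 207 CPM (normalised counts per 1e+06 reads) in parental and 104 to 234 CPM in Cre libraries, lower in 4 pairs and higher in 2 (limma adjusted p = 0.838). A count over the whole gene does not show whether the exons that Cre removes were lost, so these data do not check the knockout label, and "Cre" stands for the libraries so labelled. As a check of the cell type, E-cadherin (Cdh1) was at 272 to 805 CPM in 4 parental lines, at 17.5 in 53369 and at 0.372 in 52419, and keratin 8 (Krt8) was at 0.818 CPM in parental 52419 and 776 CPM or more in the other parental lines. Of the 6 epithelial markers, Epcam and Krt7 were also low in parental 52419 (0.818 and 1.49 CPM) and in parental 53369 (0.612 and 1.38 CPM). Epcam was at 1.99 CPM in parental 53105 as well. In parental 52419 Krt19 was at 15.5 and Krt18 at 253 CPM, both at their lowest of the 6 parental lines.

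Thrombospondins 1 and 2 form trimers that bind the receptors CD36 and CD47, and thrombospondin 1 also activates latent TGF-beta. Osteopontin (Spp1) and dentin matrix protein 1 (Dmp1) belong to a family of integrin-binding phosphoproteins known from bone and tooth, whose genes lie together on 1 chromosome. In pancreatic tumours much of the matricellular protein is made by fibroblasts, and osteopontin also by the cancer cells.

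The stretches upstream of Thbs2, Dmp1 and Spp1 are shown. Thbs2 and Dmp1 led to the choice of the set, and Spp1 lies in the same gene cluster as Dmp1, with Mepe between them. Each is the 250 bases before a start site in RefSeq (GRCm38.p6), read on the gene's own strand, at chr17:14694263-14694512 (minus strand) for Thbs2, chr5:104202367-104202616 (plus) for Dmp1 and chr5:104434861-104435110 (plus) for Spp1. For Dmp1 and Spp1, which have several start sites, the window with RUNX and ZEB letters is shown. Capitals mark letters of the RUNX and ZEB motifs and a run of 11 letters that the Dmp1 and Spp1 windows share. No longer run is shared. Another shared run of the same length, tttaaattctg, lies nearer both start sites and is left in small letters.
Thbs2: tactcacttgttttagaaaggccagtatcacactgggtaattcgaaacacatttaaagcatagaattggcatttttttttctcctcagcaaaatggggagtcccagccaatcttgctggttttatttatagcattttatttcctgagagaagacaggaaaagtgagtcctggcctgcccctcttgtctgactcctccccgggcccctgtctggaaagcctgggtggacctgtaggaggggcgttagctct
Dmp1: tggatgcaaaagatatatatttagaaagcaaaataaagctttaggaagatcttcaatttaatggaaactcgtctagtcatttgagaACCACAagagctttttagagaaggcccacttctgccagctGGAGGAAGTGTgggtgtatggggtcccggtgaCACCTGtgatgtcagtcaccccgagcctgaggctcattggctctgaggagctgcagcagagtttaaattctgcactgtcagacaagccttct
Spp1: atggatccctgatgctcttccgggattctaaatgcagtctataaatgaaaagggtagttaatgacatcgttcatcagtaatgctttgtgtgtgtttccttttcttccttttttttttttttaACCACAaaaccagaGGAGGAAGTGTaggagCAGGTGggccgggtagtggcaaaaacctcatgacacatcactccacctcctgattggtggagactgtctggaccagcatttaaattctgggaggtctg

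The Dmp1 and Spp1 windows shown are those with RUNX and ZEB letters, and in them the capitals come in the same order. How often other windows hold them in this order was not counted. In Dmp1 the RUNX letters ACCACA begin 164 bases before the start site, the shared run GGAGGAAGTGT 124 bases before it and the ZEB letters CACCTG 92 bases before it. In Spp1 the RUNX letters begin 128, the shared run 114 and the letters CAGGTG 98 bases before the start site. The marked run, of 11 letters and looked for after the windows were seen, stood on either strand in 45 of 32851 windows of all genes (0.137%). That is the share of this one string, not of any run as long, so it does not say how often 2 windows share such a run. In all, 6 motifs were searched on both strands: STAT (TTCNNNGAA), AP-1 (TGANTCA), C/EBP (TTGCNNAA), RUNX (TGTGGT), TEAD (GGAATG) and ZEB (CACCTG). They stood in 7.02%, 6.75%, 9.56%, 14.0%, 12.6% and 17.2% of all windows, in that order. The RefSeq table held 11 windows of 7 of the 8 genes (none was matched for Thbs1). Beside the matches above, the C/EBP letters stood in the windows of a second start site of Postn and of Spp1. The STAT letters stood in 0 of the 11, which says only that these letters are not in these windows.

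Thbs2, the thrombospondin known as an inhibitor of blood vessel growth, was present at high level in 2 lines only. It lies on chromosome 17 from 14665500 to 14694262 (Entrez 21826); all coordinates are on GRCm38. In parental cells it was at 2493 CPM in 52419 and 893 CPM in 53369, against 4.15 in 53105, 2.48 in 52205, 1.89 in 53371 and 1.64 in 52424. In Cre cells it was at 1163, 719, 1.36, 0.717, 0.254 and 0.218 CPM in the same order. The ranges of the 2 groups of libraries overlap, and the lines differed far more than the 2 libraries of a pair, but every Cre library lay below its own parental library. The mean change was -1.21 on the log2(CPM + 0.5) scale (SD 0.48 over 6 pairs), which understates the change of low genes.

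In 52419 the parental level was 2.14-fold the Cre level (95% interval 2.10 to 2.18), and in 53369 it was 1.24-fold (1.21 to 1.28). These intervals, exact and conditional on the reads of both libraries, cover counting error only and say nothing of how 2 cultures of 1 line would differ. Where Thbs2 was low the reads were few: 73 in parental and 23 in Cre 53105 (3.04-fold, 1.88 to 5.10), 33 and 8 in 52205 (3.46-fold, 1.57 to 8.66), 24 and 3 in 53371 (7.46-fold, 2.26 to 38.7) and 19 and 3 in 52424 (7.50-fold, 2.21 to 39.6). The log2 change in these lines depends on the pseudocount, and the mean over pairs was -0.75 with a pseudocount of 2. In bulk libraries fewer expressing cells and less RNA per cell cannot be told apart.

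Dmp1 (chromosome 5, 104197575 to 104214102, Entrez 13406), a phosphoprotein of mineralised matrix, was expressed in the same 2 lines. It was at 133 CPM in parental 52419 and 34.7 in parental 53369, and at 21.0 and 5.64 CPM in the Cre cells of those lines. In 53105 it had 15 reads in parental and 2 in Cre cells (7.19-fold, 1.67 to 64.8), in 52205 it had 4 and 0, and in 52424 and 53371 it had 0 reads in both. A count of 0 allows up to 0.258 CPM in parental 52424 and 0.236 in parental 53371 (3 reads). The parental to Cre ratio was 6.34 (5.58 to 7.23) in 52419 and 6.15 (4.84 to 7.92) in 53369. Thbs2 in those 2 lines differed less, by 2.14-fold and 1.24-fold. The mean log2 change of Dmp1 over 6 pairs was -1.16 (SD 1.18), with 4 pairs lower and 2 at 0 reads in both libraries, and -2.66 by edgeR on the reads.

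Most bone markers were low, and Runx2 was present in all lines, also in those without Dmp1 reads. Of 7 osteoblast and osteocyte markers, 3 reached 1 CPM in any library. Runx2, the bone-lineage transcription factor, ranged from 34.2 to 57.8 CPM before and from 35.9 to 60.6 CPM after Cre, while Sp7, Bglap, Ibsp and Sost were at 0.50 CPM or less in all 12. The summed level of the list, mostly Runx2, was 34.7 to 80.3 CPM in parental and 36.0 to 70.3 in Cre libraries. Phex, an endopeptidase that degrades peptides of this protein family, followed the lines of Dmp1. It was named after its values were seen. It was at 12.7 CPM in parental 52419 and 19.4 in parental 53369, at most 0.398 in the other parental lines, and at 9.30 and 12.4 CPM in Cre 52419 and 53369. Alpl, the other marker to reach 1 CPM, did not follow the lines of Dmp1. In parental cells Alpl was at 0.297 CPM in 52419, 5.05 in 53369 and 0.394 to 1.05 in the other lines.

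Pdgfra, a receptor that marks fibroblasts, lay high in the same lines and was lower after Cre as well. It was at 67.0 CPM in parental 52419 and 160 in parental 53369, against 6.54 to 13.7 in the other parental lines, and at 39.1 and 83.5 CPM in Cre 52419 and 53369. It was lower in 6 of 6 pairs by a mean log2 change of -0.71 (adjusted p = 0.0786 by limma, 0.0463 by edgeR and 1.42e-06 by DESeq2). Other genes of the fibroblast and stellate-cell list went both ways. Pdgfrb was also highest in those lines (52.5 and 106 CPM in parental, 53.6 and 113 in Cre cells), with a mean change of -0.05 and 3 pairs lower. Acta2, smooth muscle actin, had a mean change of 0.91, with 5 of 6 pairs higher (limma adjusted p = 0.301), at 2.60 CPM before and 5.99 after Cre in 52419, and at 3.29 and 17.4 CPM in 53369. Col1a1, a collagen I chain, was higher in 4 of 6 pairs (mean change 0.13), Des in 5 of 6 at 0.307 CPM or less, and Dcn, at 3.44 CPM or less, was lower in 4. The part of these markers in the values of Thbs2 and Dmp1 was not tested.

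**Figure D1:**
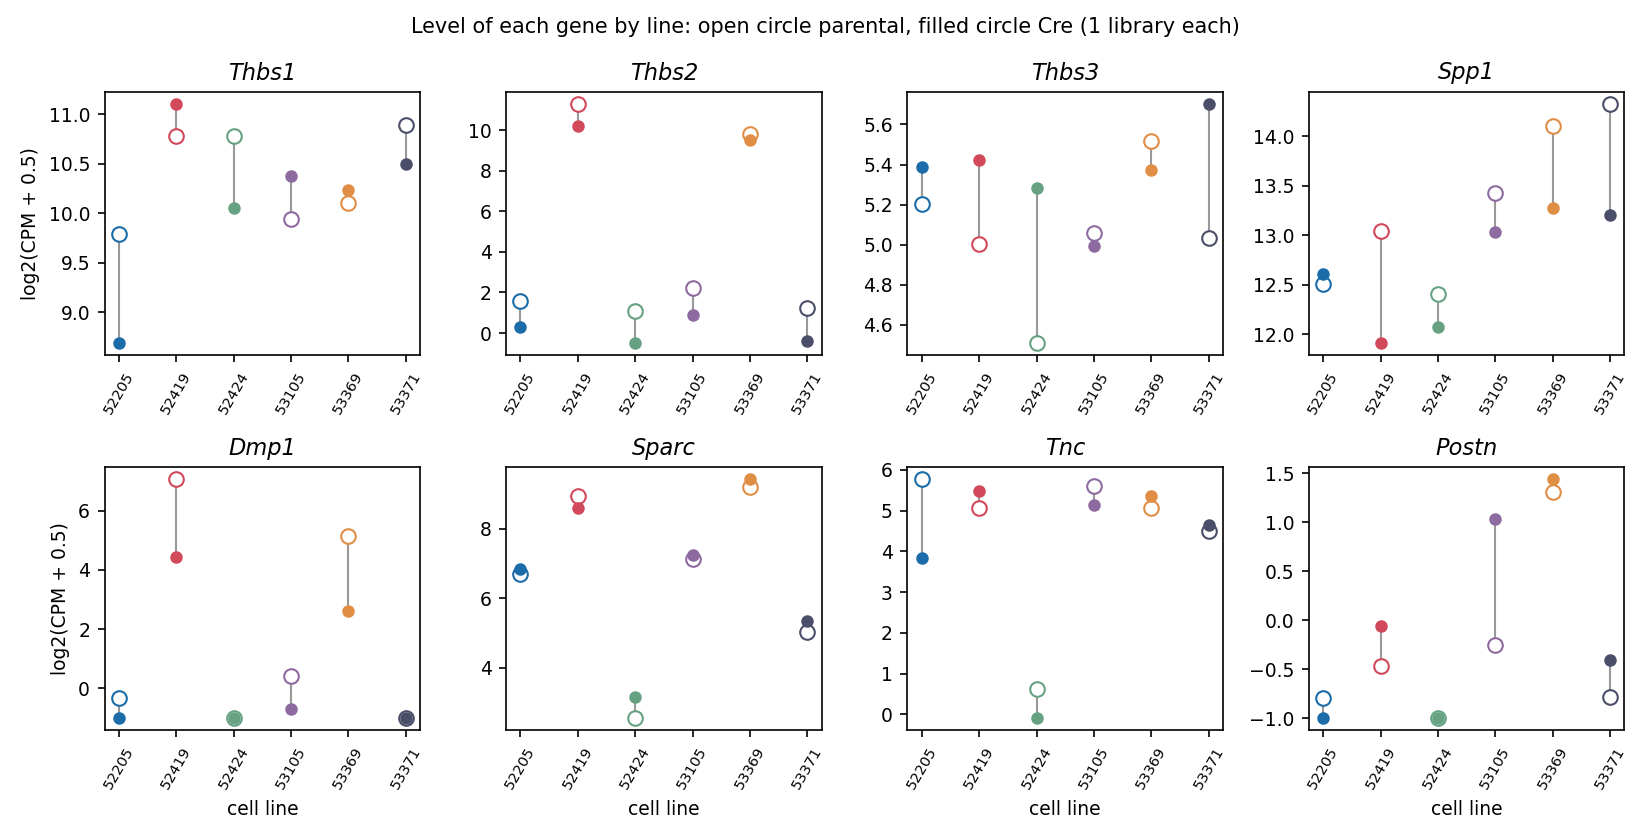
Level of each of the 8 genes as log2(CPM + 0.5) on the vertical axis, by cell line on the horizontal axis. Open circles are parental and filled circles Cre libraries, 1 each, joined by a line, and the vertical scale differs between panels. Thbs2 and Dmp1 are high in 52419 and 53369 only, and Tnc is low in both libraries of 52424.

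Spp1, osteopontin, a ligand of CD44 and integrins, was among the most abundant transcripts of these cells. The gene spans 104435111 to 104441053 of chromosome 5 (Entrez 20750). Per kilobase of exon it was the highest of 18885 genes in 4 of 12 libraries and never below rank 5. Parental levels were 20514 CPM in 53371, 17614 in 53369, 10976 in 53105, 8408 in 52419, 5816 in 52205 and 5432 in 52424. The Cre levels, in the same order of lines, were 9423, 9916, 8360, 3861, 6266 and 4319 CPM. The groups overlap, with 5 pairs lower after Cre and 52205 slightly higher. The parental level was 2.18-fold the Cre level in both 52419 and 53371, 1.78-fold in 53369, 1.31-fold in 53105 and 1.26-fold in 52424. The mean log2 change was -0.61 (SD 0.49). With that, the spread of Spp1 between lines was narrower in Cre cells (SD 0.58, log2) than in parental cells (0.80), a difference that was not tested.

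Of the genes beside Spp1, Mepe and Pkd2 were measured; those beside Dmp1 were not analysed here. Mepe, the nearest gene before Spp1 and a member of the same phosphoprotein family, was at 0 CPM in 11 of the 12 libraries, and Ibsp reached at most 0.297 CPM. Pkd2, the nearest gene after Spp1 and the gene of polycystin 2, was at 59.1 to 125 CPM in parental and 68.6 to 90.4 CPM in Cre libraries, with a mean log2 change of -0.20.

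Thbs1 (chromosome 2, 118111876 to 118127133, Entrez 21825), the activator of latent TGF-beta, was high in every line and was lower after Cre in 3 pairs and higher in 3. Parental levels were 882 CPM in 52205, 980 in 53105, 1098 in 53369, 1763 in 52424, 1765 in 52419 and 1896 in 53371. Cre levels in the same order were 413, 1328, 1207, 1061, 2203 and 1445 CPM. It was lower after Cre in 52205 (2.14-fold), 52424 (1.66-fold) and 53371 (1.31-fold) and higher in 53105 (1.35-fold), 52419 (1.25-fold) and 53369 (1.10-fold). The mean log2 change of -0.22 was smaller than its SD over pairs of 0.62, and was -0.05 without pair 52205. The nearest measured gene, Fsip1, was at 1.04 CPM or less in all libraries. Parental 52424 and 52419 did not differ beyond counting error.

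Thbs3 (chromosome 3, 89215180 to 89226841, Entrez 21827), a thrombospondin that assembles as a pentamer, had the smallest spread between parental lines of the 8. Parental libraries were at 22.3 CPM in 52424, 31.6 in 52419, 32.2 in 53371, 32.9 in 53105, 36.3 in 52205 and 45.3 in 53369, and Cre libraries at 38.4, 42.4, 51.6, 31.4, 41.4 and 40.9 CPM in the same order. The groups overlap, 4 pairs were higher after Cre and 2 lower, and the mean log2 change was 0.31 (SD 0.38). In the order of parental lines, 3 of 5 neighbouring steps (52205, 53105, 53371 and 52419) lay within counting error. The nearest gene before it, Mtx1, which encodes the mitochondrial protein metaxin 1, lies 1273 bases away and was at 48.0 to 83.9 CPM in parental and 58.5 to 88.9 in Cre libraries, with a mean log2 change of 0.25.

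Sparc (chromosome 11, 55394159 to 55420080, Entrez 20692), a collagen-binding glycoprotein, kept the same order of the 6 lines in Cre as in parental cells. Parental levels were 593 CPM in 53369, 493 in 52419, 140 in 53105, 102 in 52205, 32.1 in 53371 and 5.34 in 52424, and Cre levels were 685, 382, 150, 115, 40.4 and 8.36 CPM. No 2 neighbours in either order were within counting error of each other. Cre was higher in 5 pairs and lower in 52419, with a mean log2 change of 0.17 (SD 0.32), far below the spread between parental lines (SD 2.51). That mean was 0.28 without pair 52419 and 0.09 without pair 52424. The nearest measured gene, Atox1, a copper chaperone, was at 57.8 to 86.6 CPM in parental and 57.9 to 87.4 CPM in Cre libraries.

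Tnc (chromosome 4, 63959785 to 64047015, Entrez 21923), tenascin C, a modular glycoprotein of wounds and tumour stroma, was set apart by 52424. Parental levels were 54.1 CPM in 52205, 48.1 in 53105, 33.0 in 52419, 32.9 in 53369, 22.1 in 53371 and 1.03 in 52424, the last from 12 reads. Cre levels in that order were 13.9, 34.5, 44.4, 40.6, 24.6 and 0.436 CPM. In 52205 the parental level was 3.89-fold the Cre level (3.27 to 4.66), the same line in which Thbs1 was lowest after Cre, whereas 52419, 53369 and 53371 were slightly higher after Cre. The mean log2 change was -0.37 (SD 0.88), and -0.06 without pair 52205. The overlapping noncoding gene 8030451A03Rik was at 0.254 CPM or less in all libraries.

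Postn (chromosome 3, 54359267 to 54391041, Entrez 50706), periostin, the matrix protein of activated fibroblasts, was near the limit of detection. It had 26 reads in parental 53369 (1.99 CPM) and 0 to 6 reads in the other parental libraries. In Cre libraries it had 31 reads in 53369 (2.21 CPM), 26 in 53105 (1.54 CPM), 6 in 52419, 3 in 53371 and 0 in 52205 and 52424. In 53105 it went from 6 to 26 reads (4.52-fold higher, 1.82 to 13.4). The mean log2 change was 0.33 (SD 0.52), and 0.14 without pair 53105.

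Side by side and per kilobase of exon, mean parental levels were 6954 CPM per kb for Spp1, 239 for Thbs1, 96.0 for Thbs2, 83.7 for Sparc, 10.5 for Thbs3, 10.2 for Dmp1, 4.10 for Tnc and 0.137 for Postn. The means of Thbs2 and Dmp1 stand for no single line, since their medians were 0.562 and 0.209 CPM per kb. Of the 8 genes, 6 passed the filter for testing (1 CPM in at least 6 libraries), and Dmp1 and Postn did not. Estimates of the mean change were below 0 for 5 of 8 and above 0 for 3, where 50.1% of all genes tested were below 0. Thbs2 alone was lower in 6 of 6 pairs, where 4.56% of 12734 genes tested were, and 0 of the 8 were higher in 6 of 6 pairs, against 4.11% of genes tested. Nothing is read from these counts, since the same contrast chose the set.

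**Figure D2:**
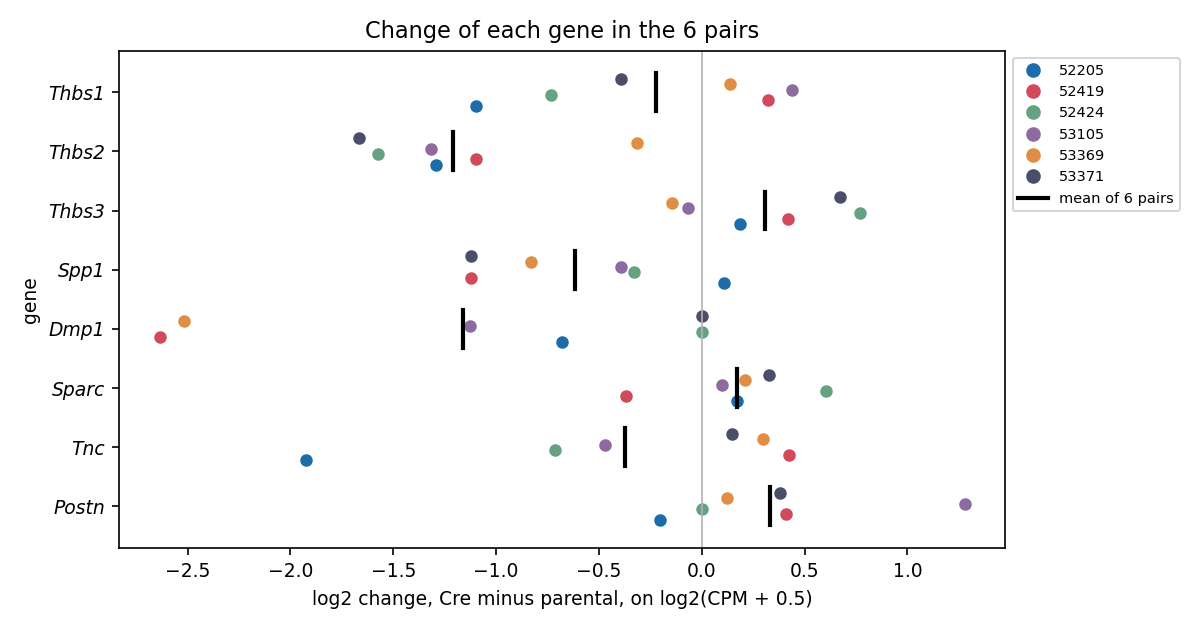
Log2 change from parental to Cre of each gene (horizontal axis, log2 of CPM + 0.5), 1 coloured point per cell line, with the mean of 6 pairs as a black bar. Thbs2 lies below 0 in all 6 lines, Dmp1 is furthest below 0 in 52419 and 53369, and Thbs1 and Tnc lie on both sides.

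The levels of Thbs2, Dmp1 and Sparc differed most between the cell lines. The set was not picked on the level in parental cells, although that level enters the change. The SD of the log2 level between the 6 parental lines was 4.69 for Thbs2, 3.49 for Dmp1, 2.51 for Sparc and 1.92 for Tnc, against a median of 0.40 over all genes tested. For Tnc it was 0.50 without 52424. Only 2 of 12734 tested genes had a larger SD than Thbs2 (0.0157%). The filter for testing drops genes under 1 CPM in most libraries, and so genes high in 1 or 2 lines only, such as Dmp1. The rank of Thbs2 therefore holds among the genes tested and not among all genes. Postn (0.85), Spp1 (0.80) and Thbs1 (0.49) were also above that median, and Thbs3 (0.33) below it. For Postn it was 0.30, below the median, without 53369. For 6 of the 8 the SD of the change over pairs was smaller than the SD between parental lines, the exceptions being Thbs1 and Thbs3. Over all genes tested the median SD of the change was also the smaller, 0.29 against 0.40. The share of those genes was not counted, so the 6 of 8 is not a trait of this set. Over the 6 lines the parental level correlated with the Cre level of the same line with Pearson r of 0.998 for Thbs2, 0.996 for Sparc, 0.992 for Dmp1, 0.910 for Tnc, 0.865 for Postn, 0.791 for Spp1, 0.640 for Thbs1 and 0.103 for Thbs3, where the median over all genes tested was 0.802. These are descriptions over 6 points, and for Thbs2 and Dmp1 2 of the points lie far above the others. For Tnc r rests on 52424: without that line it was -0.35. For Thbs1 it was 0.308 without 52205, and for Thbs3 -0.06 without 52424.

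**Figure D3:**
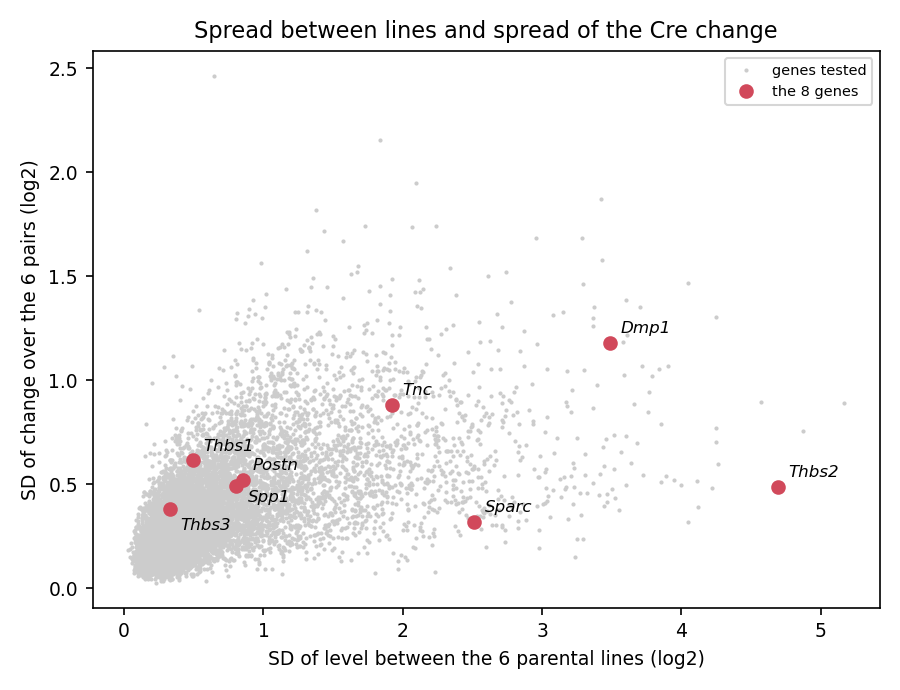
Each grey point is 1 of the genes tested and each red point 1 of the 8 genes. The horizontal axis is the SD of the log2 level between the 6 parental lines and the vertical axis the SD of the log2 change over the 6 pairs. Thbs2 lies at the right edge (4.69), and Thbs1 and Thbs3 lie among the bulk of genes.

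Genes with the most similar pattern over the 6 parental lines were sought among 6778 tested genes with a range of at least 1 log2 unit, by Pearson r of log2(CPM + 0.5), and r over the 6 Cre libraries is given after it. For Dmp1 they were the transcript 4930579G24Rik (0.996, then 0.949), Thbs2 (0.994, then 0.978) and Socs1, a feedback inhibitor of JAK kinases (0.993, then 0.985). For Thbs2 they were Lsm3, a subunit of an RNA-binding ring of splicing (0.998, then 0.723), Fam216a (0.995, then 0.863) and Rgmb, a co-receptor of bone morphogenetic proteins (0.993, then 0.838). All genes named for Dmp1 and Thbs2 were highest in parental 52419 and 53369. Pearson r takes no account of the size of a difference: parental Lsm3 was at 26.3 to 55.9 CPM, parental Thbs2 at 1.64 to 2493. Sparc was nearest to the matrix genes Fbn1, fibrillin 1 (0.996, then 0.972), and Adamts14, a procollagen protease (0.988, then 0.960), with Glrb between them (0.993, then 0.774). Tnc was nearest to Lzts2 (0.981, then 0.883), Timm23 (0.978, then 0.791) and Ildr2 (0.975, then 0.925), all lowest in parental 52424, as Tnc was. For Spp1 they were Fkbp14, an isomerase of collagen folding (0.962, then 0.768), Vamp2 (0.955, then 0.610) and Tsc22d1 (0.951, then 0.818). For Thbs1, Fndc4 (0.939, then 0.601), Stc2 (0.924, then 0.717) and Morf4l1 (0.913, then -0.03) led. For Thbs3 the leading genes Gm2808 (0.989, then 0.127), Dab2 (0.976, then 0.111) and Prune2 (0.972, then -0.31) had low or negative r in Cre cells. Postn was below the minimum level for this comparison.

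The other genes of the system were taken from 5 lists, with 63 tested genes in all. The lists were chosen with earlier results of these data known. Nothing is therefore read from their counts set against all genes tested, here or below. Among the 63 genes 0 passed the test of Cre against parental over all genes (limma, Benjamini-Hochberg adjusted p under 0.05). Of 12734 genes 3 did (0.0236%), all lower. At an unadjusted p under 0.05, 14 of the 63 were lower and 3 higher, against 8.18% lower and 6.96% higher of all genes tested. EdgeR called 0 of the 63 (0.0393% of all genes tested) and DESeq2 called 6 (2.13% of all genes tested): Fn1, Tgm2, Tgfbi, Mmp2 and Itga6 lower and Ccn4 higher.

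Other matricellular genes went both ways, with 6 estimates below 0 and 5 above among 11 tested and a median log2 change of -0.02, against a median of 0.00 over all genes. Ccn4, a CCN-family protein induced by WNT signalling, had 7.89 ± 6.29 CPM before and 12.7 ± 7.80 CPM after Cre (SD, n = 6 each). Its log2 change was 0.81 (SE 0.19, limma adjusted p = 0.177), and every pair was higher. Tgfbi, the TGF-beta-induced relative of periostin, was at 23.5 ± 33.7 and 8.47 ± 9.96 CPM, a change of -0.79 (limma adjusted p = 0.258). Like Thbs2 and Dmp1 it was highest in 52419 (84.1 CPM) and 53369 (42.6 CPM).

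Of 20 tested receptors of these proteins, 16 had estimates below 0 and 4 above, where 50.1% of all genes tested were below 0. Their median was -0.17. Itga8, the integrin subunit that binds osteopontin and tenascin C, was at 34.0 CPM in parental 52419 and 0.861 to 10.2 in the other parental lines, had a log2 change of -0.74 (SE 0.17, limma adjusted p = 0.177) and was lower in 6 of 6 pairs. Itga6, a laminin receptor subunit, had a log2 change of -0.39 (limma adjusted p = 0.205), also lower in 6 of 6. Among the receptors, Cd47 and Cd44 were present in all lines, while Cd36 was at 0.158 CPM or less. The integrin subunits Itga4 and Itga9 were low too, at most 5.80 and 1.10 CPM. Itga4 was at 0 CPM in Cre 52424 and Itga9 at 0 CPM in parental 53105. Cd47 averaged 114 ± 22.7 CPM before and 100.5 ± 19.9 after Cre, and Cd44 770 ± 223 and 665 ± 197 CPM (SD, n = 6 each).

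All 10 tested proteases, kinases and cross-linkers that act on matricellular proteins had estimates below 0, against 50.1% of all genes tested. Since this list too was chosen with earlier results known, nothing is read from that count. Their median was -0.33. At an unadjusted limma p under 0.05, 4 of them were lower, against 8.18% of all genes tested. Tgm2, a transglutaminase that cross-links osteopontin, averaged 81.0 ± 27.5 CPM before and 52.1 ± 26.0 after Cre (SD, n = 6 each), a change of -0.68 (SE 0.13, limma adjusted p = 0.140). Mmp2, gelatinase A, had a log2 change of -0.46 (SE 0.10, limma adjusted p = 0.177), and was highest in 53369 (143 CPM) and 52419 (129 CPM) among parental lines. Both were lower in 6 of 6 pairs.

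TGF-beta and bone morphogenetic protein genes had a median of -0.11 over 14 tested, 12 below 0, against 50.1% of all genes tested. Bmp2 had a log2 change of -0.70 and Bmp4 one of -0.45 (limma adjusted p = 0.258 and 0.291), lower in 5 and 4 of 6 pairs. Fibrillar matrix genes had a median of 0.16 over 8 tested, with 2 estimates below 0 and 6 above. Fn1, fibronectin, averaged 4265 ± 2145 CPM before and 3113 ± 2221 after Cre (SD, n = 6 each), a change of -0.57 (SE 0.13, limma adjusted p = 0.177), lower in 6 of 6 pairs, and Fbn1 had one of 0.41 (limma adjusted p = 0.324).

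**Figure D4:**
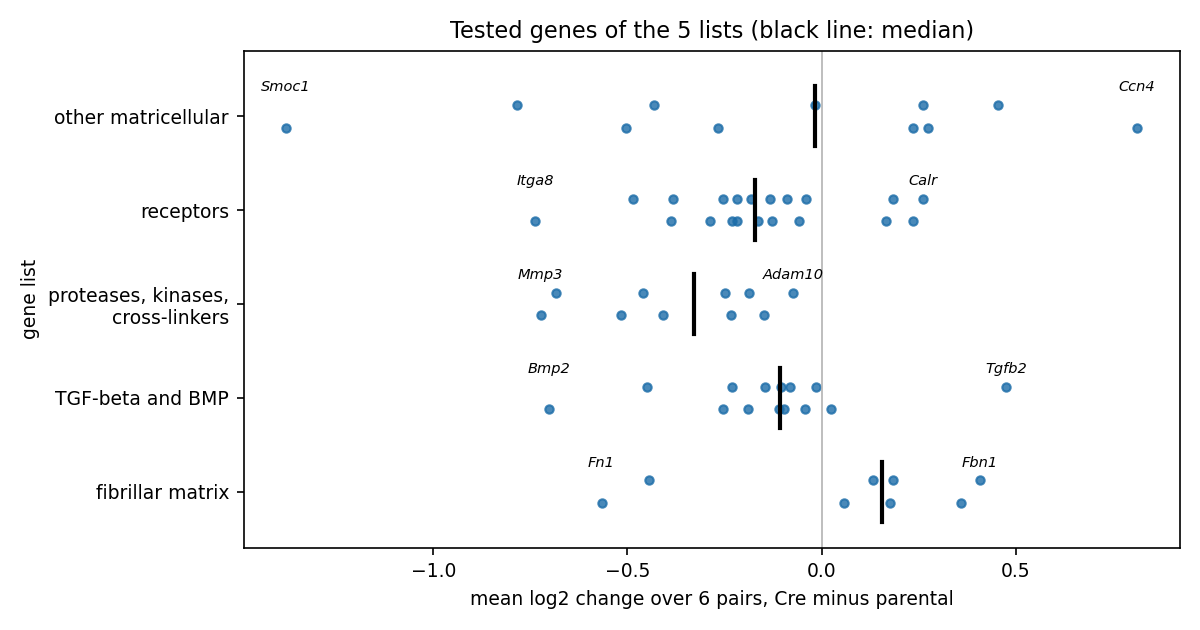
Mean log2 change over 6 pairs (horizontal axis) of the tested genes in each of the 5 lists (vertical axis), 1 point per gene, with the list's median as a black bar and the lowest and highest gene named. The proteases, kinases and cross-linkers all lie below 0, with a median of -0.33, where 50.1% of all genes tested lie below 0. The lists were chosen with earlier results of these data known, so nothing is read from this.

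Of the other marker lists, those of leukocytes and endothelium were low in all libraries. The summed level of 6 fibroblast and stellate-cell markers was 9.85 to 502 CPM in parental and 10.4 to 316 in Cre libraries, highest in 53369 (502 CPM) and 52419 (147 CPM), the lines with Thbs2 and Dmp1. Summed leukocyte markers were 1.99 to 23.4 CPM in parental and 1.48 to 9.50 in Cre libraries, with Ptprc at 1.02 CPM or less, endothelial markers 0.535 to 6.77 and 0.384 to 5.16 CPM, and acinar markers 1.03 to 13.0 and 1.67 to 18.5 CPM. Epithelial markers summed to 272 to 12137 CPM in parental and 211 to 13085 in Cre libraries, lowest in 52419 in both, and mesenchymal markers to 617 to 3517 and 1027 to 4127 CPM, lowest in 52424 in both. The part of these lists in the levels of the 8 genes was not tested.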

How the data were processed

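Poly(A) RNA-seq libraries of 6 parental and 6 Cre cultures were analysed. Per the submitters' processing notes, the tools included FastQC 0.11.9, featureCounts and edgeR, and the builds named are GRCm38 and mm10. The aligner is not given in the sources used here. Among the steps of the labels’ library protocol, none that marks strand is named. One deposited table gives a linear signal for 20432 genes, which matched read counts over TMM-scaled library sizes per 1e+06 reads and is called CPM here. Dividing by the value of a single read (0.0569 to 0.0896 CPM) gave whole reads, to within 0.01, for 100% of values. The deposited log2 table holds log2 values of 10903 genes and served as an alternative.

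Symbols and coordinates came from RefSeq (GRCm38.p6; 19448 genes matched, 984 did not), exon lengths from GENCODE M21 (GRCm38). Genes at 1 CPM or more in 6 libraries (12734) were fitted as log2(CPM + 0.5) by limma-trend (limma 3.58.1 in R 4.3.3), blocking on cell line, Benjamini-Hochberg adjusted, called under 0.05. The fit was tested on simulated data. In each line the parental and Cre libraries deviated together (correlations across genes 0.732 to 0.946), and they are isogenic pairs by design. There is 1 library per line and condition, so the spread behind a p-value is that of the change between lines. Ratio intervals are 95% exact conditional binomial on reads and cover counting error only. Alternatives were other pseudocounts, filters and scalings, no block, each pair left out, robust moderation, edgeR 4.0.16 and DESeq2 1.42.0 on the recovered reads.

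The 8 genes and the lists were chosen with earlier results of these data known. Other genes were named by rule: the 2 smallest p of each list, the 3 most similar patterns, and the nearest genes. Cdh1, Krt8, the other marker genes, Jak1, Cd36, Cd47, Cd44, Itga4, Itga9 and Phex were named outside that rule. Of the listed genes, Dspp, Lum, Cd3e, Cpa1 and Prss1 were not analysed here.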

Additional observations from a re-analysis of the deposited data

Results flagged for a closer look

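In 24 groups of 6 values (parental levels, Cre levels and changes of each of the 8 genes, log2 of CPM + 0.5), 3 had a highest or lowest value far from the rest by Dixon's criterion, which chance alone meets in about 1 group in 20. Parental 53369 stood above the other parental lines for Postn, at 1.32. Line 52424 stood below the other lines for Tnc in both libraries, at 0.62 in parental and -0.095 in Cre cells.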

How the results depend on the processing

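The mean change of each of the 8 genes kept its sign under every alternative run. Over these it ranged from -1.59 to -0.75 for Thbs2, -2.66 to -0.87 for Dmp1, -0.76 to -0.51 for Spp1, -0.35 to -0.05 for Thbs1, -0.53 to -0.06 for Tnc, 0.21 to 0.40 for Thbs3, 0.09 to 0.28 for Sparc and 0.14 to 0.93 for Postn. Thbs2, Dmp1 and Postn are not in the deposited log2 table. On recovered reads, which add no fixed pseudocount, Dmp1 was at -2.66 by edgeR and -2.64 by DESeq2, and Postn at 0.93 by edgeR. The SD between parental lines of Postn was 1.54 with a pseudocount of 0.1. With each line left out in turn it ranged from 0.30 to 0.95 for Postn and from 0.50 to 2.15 for Tnc. The correlation of parental with Cre levels over lines, left out the same way (chosen after seeing the data), ranged from -0.35 to 0.986 for Tnc and from -0.060 to 0.188 for Thbs3, and kept its sign for the other 6 genes.

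The number of genes called was 3 over all pairs, 0 with no filter on low genes, 0 with no replicate block for the pairs, 5 by edgeR and 271 by DESeq2, and 0 to 5 with each pair left out (0 without 52419, 52424 or 53369). DESeq2 called 6 genes of the 5 lists where limma called 0. The cause of these differences was not tested. Depth limits Dmp1 and Postn most: Dmp1 had 0 reads in both libraries of 52424 and 53371, and Postn in both libraries of 52424.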

Other observations

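Several matricellular genes outside the 8 were also high in 1 line or absent from some, and were picked for mention after their values were seen. Thbs4, a thrombospondin that assembles as a pentamer, had 25.2 CPM before and 0.896 CPM after Cre in 52205, and at most 0.788 in the other parental lines. It was higher after Cre in 3 pairs, from 0.788 to 2.62 CPM in 53371 and from 0.0861 to 1.16 CPM in 52424. Tnn, tenascin N, had 17.6 CPM before and 1.38 CPM after Cre in 52419, and at most 0.535 in the other parental lines. Smoc2, a relative of Sparc, was at 292 and 203 CPM in parental and Cre 52419, and its paralogue Smoc1 had 0 reads in parental 52419 and 53369, while going from 11.9 to 0.0896 CPM in 52205. Bgn, biglycan, had 902 CPM before and 1231 CPM after Cre in 52419, and at most 6.05 CPM in any other line.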
